A study of Mus musculus with 10 samples.

Results

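The 33 genes described here encode subunits of voltage-gated calcium channels, voltage-gated sodium channels and hyperpolarization-activated (HCN) channels, and their RNA was measured in the cerebellum and cerebral cortex of Snx14-KO and control mice. They were chosen by name as 33 of the 55536 mouse genes in the count tables and fall into 8 subfamilies: 5 pore-forming alpha1 subunits of high-voltage-activated calcium channels, 3 of T-type calcium channels, 4 alpha2delta, 4 beta and 6 gamma auxiliary subunits, 4 alpha and 3 beta subunits of neuronal sodium channels together with the skeletal muscle alpha subunit Scn4a, and 3 HCN channels. The study asked how loss of Snx14, a sorting nexin that takes part in lipid handling, affects a brain region that degenerates and one that is spared. Bulk RNA came from 5 mice at 1 year of age, each of which gave both tissues. The 3 control mice were 2 heterozygous animals (Het, controls 1 and 2) and 1 wild-type animal (WT, control 3), and the other 2 mice (KO 1 and KO 2) carried the Snx14 deletion on both copies. That deletion is a 1-base frameshift made by CRISPR on a C57BL/6J background, it is constitutive, so every cell of the body carries it, and it was kept as 1 mutant line, so that the KO mice represent a single allele.

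Voltage-gated channels open or close with the membrane potential and set when and how a neuron fires. Calcium channel pores of the P/Q, N and R types drive transmitter release, L-type pores couple firing to transcription, and T-type pores open near rest and support burst firing. The auxiliary alpha2delta and beta subunits bring the calcium pore to the membrane and tune its gating. Most of the gamma subunits listed here act on AMPA-type glutamate receptors rather than on calcium channels. Sodium channel alpha subunits carry the upstroke of the action potential, their beta subunits shape gating and adhesion, and HCN channels carry an inward current on hyperpolarization that paces rhythmic firing. Purkinje cells, the only output neurons of the cerebellar cortex, fire spontaneously and depend on several of these channels, and mutations of several of these genes cause ataxia in mice or people.

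Library totals lay between 16088310 and 22975355 gene counts, and levels are given as CPM values, counts relative to library size, scaled across all 10 libraries. Snx14 stood at 42.8, 39.9 and 73.3 CPM in the cerebellum of controls 1 to 3 and at 15.5 and 17.4 CPM in KO 1 and KO 2. In cortex it stood at 34.4, 35.0 and 50.9 CPM in the controls and at 14.8 and 16.1 CPM in the KO libraries, so the KO libraries lay below every control in both tissues. Markers of granule cells marked the cerebellum, with summed levels of 3717 to 4403 CPM there and 95.5 to 123 CPM in cortex. The cortex libraries also held RNA of 8 marker genes of striatal projection neurons, which summed to 1706, 3728 and 1535 CPM in controls 1 to 3 and to 967 and 543 CPM in KO 1 and KO 2. Cortex control 2 stood apart, since it also held 8874 CPM of 7 oligodendrocyte genes against 4807 to 5273 CPM in the other cortex libraries. In cerebellum KO 1, choroid plexus genes summed to 48.2 CPM against 1190 to 3382 CPM in the other 4 libraries. For some of the members whose values these libraries moved, the value without the library is given beside the result.

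To set a baseline, the members were first compared between the tissues of the control mice. Of the 33 members 32 passed the filter on low counts and were tested. Scn4a, the sodium channel pore of skeletal muscle, was the exception, with a single read pair in cerebellum KO 2 and a count of 0 in the other 9 libraries, which allows up to 0.186 CPM in the shallowest library. The quasi-likelihood test of edgeR was run on all genes, and a call required both an adjusted p (Benjamini-Hochberg) under 0.05 and a log2 fold change beyond 0.5 in either direction. By this rule 8 members were higher in cerebellum, where the background over all genes tested was 19.1%, and 15 were lower, where the background was 21.5%. The median log2 difference of the 32 members was -0.32, beside 0.02 over all 19416 genes tested. Each of the 6 subfamilies with a member called higher in cerebellum also had a member called lower.

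**Figure D1:**
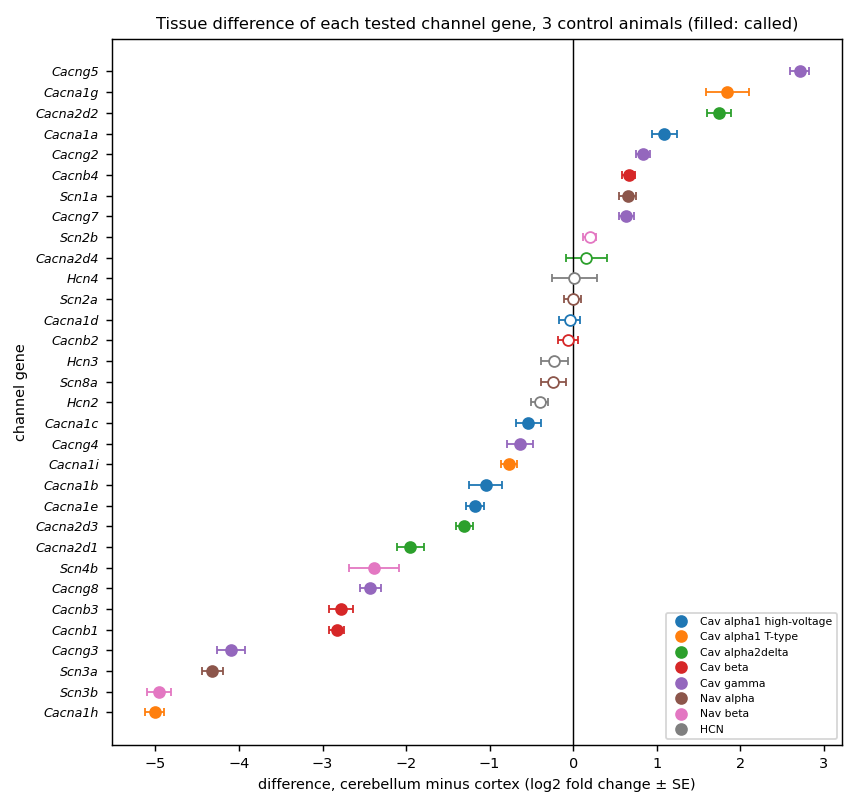
Log2 fold change of each of the 32 tested channel genes between cerebellum and cortex of the 3 control mice, with its SE, sorted by size and coloured by subfamily, where filled points were called. The 15 called members on the left run from -5.01 for Cacna1h to -0.54 for Cacna1c, and the 8 called on the right reach 2.71 for Cacng5.

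Among the high-voltage-activated pores, Cacna1a was the cerebellar gene. It encodes the P/Q-type pore, whose mutations cause ataxia, and stood at 383, 348 and 350 CPM in the control cerebella against 195, 128 and 184 CPM in the control cortices. The groups did not overlap, and the log2 difference was 1.09 (SE 0.15, edgeR adjusted p = 0.000336). Cacna1e, the R-type pore, had the largest difference in the opposite direction, with 144, 130 and 125 CPM in cerebellum and 302, 262 and 335 CPM in cortex. Its log2 difference was -1.17 (SE 0.11, edgeR adjusted p = 2.78e-05). The N-type pore Cacna1b (54.0 ± 6.05 against 112 ± 32.3 CPM, SD, n = 3 each) and the L-type pore Cacna1c (51.5 ± 7.95 against 74.6 ± 13.0 CPM) were also called lower in cerebellum. The call of Cacna1c was lost with library totals as the only scaling (log2 difference -0.42) and without cerebellum control 3 (-0.42), cortex control 1 (-0.50) or cortex control 3 (-0.45). The other L-type pore, Cacna1d, did not pass the test, with 53.9 ± 5.35 CPM in cerebellum and 55.4 ± 8.68 CPM in cortex.

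The T-type pores held the largest tissue difference. Cacna1g, the T-type pore of Purkinje cells and thalamic relay cells, stood at 325, 234 and 312 CPM in the control cerebella and at 92.2, 48.6 and 101 CPM in the control cortices, a log2 difference of 1.84 (SE 0.26, edgeR adjusted p = 0.000346). Cacna1h had the largest difference of all members, with 2.10, 2.41 and 1.98 CPM in cerebellum against 72.5, 64.6 and 72.6 CPM in cortex, 32.2-fold lower (log2 difference -5.01, SE 0.12, edgeR adjusted p = 1.80e-08). Cacna1i was lower in cerebellum by a smaller margin, at 72.5 ± 6.57 against 123 ± 11.6 CPM (SD, n = 3). To compare genes with each other, levels were divided by exon length (RPKM). On that scale Cacna1g held 78.8% ± 3.56 (SD, n = 3) of the summed T-type level in control cerebellum and Cacna1h 0.626% ± 0.152. In control cortex the 3 genes were closer, with Cacna1i at 45.7% ± 3.64, Cacna1g at 28.2% ± 6.19 and Cacna1h at 26.2% ± 2.64.

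The alpha2delta subunits divided in the same manner. Cacna2d2, which is mutated in the ataxic ducky mouse, stood at 205, 161 and 187 CPM in control cerebellum and at 49.8, 66.6 and 48.0 CPM in control cortex (log2 difference 1.74, SE 0.14, edgeR adjusted p = 1.47e-05). Cacna2d1, a binding site of gabapentin, stood at 54.1, 54.0 and 45.8 CPM in cerebellum against 215, 149 and 231 CPM in cortex, 3.87-fold lower (log2 difference -1.95, SE 0.16, edgeR adjusted p = 1.55e-05). Cacna2d3 was lower in cerebellum as well, at 53.5 ± 5.06 against 132 ± 13.3 CPM (SD, n = 3). Cacna2d4, best known from the retina, was low in both tissues (2.18 ± 0.249 and 1.95 ± 0.446 CPM) and did not pass the test. Per length, Cacna2d2 held 68.7% ± 2.12 of the summed alpha2delta level in cerebellum and 18.1% ± 3.91 in cortex, where Cacna2d1 (41.7% ± 8.17) and Cacna2d3 (39.7% ± 4.33) held most of it.

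The beta subunits showed a further exchange. Cacnb4, mutated in the ataxic lethargic mouse, stood at 503, 475 and 499 CPM in control cerebellum and at 310, 295 and 324 CPM in control cortex, a log2 difference of 0.66 (SE 0.08, edgeR adjusted p = 0.000147). Cacnb1 stood at 16.7, 19.0 and 18.9 CPM against 135, 122 and 132 CPM (log2 difference -2.83, SE 0.09, edgeR adjusted p = 6.79e-08). Cacnb3 was nearly as different, at 35.3 ± 3.53 CPM in cerebellum and 241 ± 42.2 CPM in cortex (SD, n = 3), while Cacnb2 did not pass the test (45.6 ± 5.87 and 47.5 ± 4.64 CPM). Cacnb4 held 77.1% ± 1.15 of the summed beta level per length in cerebellum and 27.4% ± 1.88 in cortex, where Cacnb3 led with 47.1% ± 3.66. This order in cortex holds per length only, since by CPM, which favours long transcripts, Cacnb4 led with 42.7%.

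All 6 gamma subunits were called, 3 in each direction. Cacng5 had the largest rise of any member, with 51.6, 42.3 and 45.7 CPM in control cerebellum and 7.43, 6.69 and 7.13 CPM in control cortex, 6.55-fold higher (log2 difference 2.71, SE 0.11, edgeR adjusted p = 2.73e-07). Stargazin, encoded by Cacng2 and missing in the ataxic stargazer mouse, was higher in cerebellum at 225 ± 13.5 against 126 ± 8.35 CPM (SD, n = 3), and Cacng7 at 256 ± 11.5 against 164 ± 15.5 CPM. Cacng3 had the largest fall, with 5.47, 6.48 and 6.61 CPM in cerebellum and 111, 82.3 and 123 CPM in cortex (log2 difference -4.09, SE 0.17, edgeR adjusted p = 2.86e-07). Cacng8 was lower at 12.2 ± 0.747 against 65.4 ± 9.62 CPM and Cacng4 at 30.0 ± 2.89 against 46.4 ± 10.8 CPM. The call of Cacng4 rested on cortex control 2, without which its log2 difference was -0.45. Per length, Cacng7 was the most abundant member of all in cerebellum, at 105 ± 4.69 RPKM (SD, n = 3), and the most abundant gamma subunit in cortex, at 67.4 ± 6.35 RPKM.

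The sequence just before the transcription start is shown for members from opposite sides of the tissue difference. It was limited to called members whose window lies outside the annotated gene and every annotated exon (9 members had such a window). Cacng5 (log2 difference 2.71) and Cacng7 (0.63) were the only such members called higher in cerebellum. Cacng7 had the smallest rise of all members called higher. Cacna2d1 (-1.95) and Cacna2d3 (-1.30) had the largest falls among the called members with such a window. Members without such a window fell further, among them Cacng3 (-4.09). Sequences are from RefSeq (GRCm38.p6), which had an entry for 25 of the 33 members, and each window is the 250 bases before the start, written 5′ to 3′ on the gene's own strand. Capitals mark every match, on either strand, to the GC box (GGGCGG) or the CCAAT box (CCAAT), overlapping matches included.
Cacna2d1: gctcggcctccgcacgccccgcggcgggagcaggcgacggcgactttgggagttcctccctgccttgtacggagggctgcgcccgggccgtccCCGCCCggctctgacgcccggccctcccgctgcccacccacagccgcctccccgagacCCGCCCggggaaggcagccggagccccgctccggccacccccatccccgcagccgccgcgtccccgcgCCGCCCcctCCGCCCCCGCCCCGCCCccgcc
Cacna2d3: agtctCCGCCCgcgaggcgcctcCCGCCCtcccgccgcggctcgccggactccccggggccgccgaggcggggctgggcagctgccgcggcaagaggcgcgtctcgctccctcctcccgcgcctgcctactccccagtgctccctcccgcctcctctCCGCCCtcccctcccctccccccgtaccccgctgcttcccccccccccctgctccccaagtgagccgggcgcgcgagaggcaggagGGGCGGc
Cacng7: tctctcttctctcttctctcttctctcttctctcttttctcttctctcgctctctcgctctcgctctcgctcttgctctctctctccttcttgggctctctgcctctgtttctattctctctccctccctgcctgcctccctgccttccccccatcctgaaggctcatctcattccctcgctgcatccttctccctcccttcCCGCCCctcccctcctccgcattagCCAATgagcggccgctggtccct
Cacng5: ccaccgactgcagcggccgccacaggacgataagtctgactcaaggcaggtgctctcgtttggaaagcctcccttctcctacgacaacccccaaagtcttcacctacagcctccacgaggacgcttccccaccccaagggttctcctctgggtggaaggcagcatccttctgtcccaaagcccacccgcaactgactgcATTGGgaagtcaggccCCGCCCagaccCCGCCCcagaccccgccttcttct

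The windows lie at chr5:15934441-15934690 (plus strand) for Cacna2d1, chr14:29721865-29722114 (minus) for Cacna2d3, chr7:3332575-3332824 (plus) for Cacng7 and chr11:107915056-107915305 (minus) for Cacng5. Both alpha2delta windows were rich in G and C, at 82.4% and 80.0%, with 36 and 30 CpG pairs, and held 6 and 4 GC boxes and no CCAAT box. The gamma windows had 58.0% (Cacng7) and 62.0% (Cacng5) G and C, with 9 and 12 CpG pairs, and each held 1 CCAAT box, beside 1 and 2 GC boxes. Over the 25 members with a window, 11 (44.0%) held a GC box, against 32.7% of all 32851 windows of the same length. Each member was given 1 window, at its start farthest upstream, while all windows include every start of a gene, so the sets differ in kind. Of the 25 member windows only 9 lay outside the annotated gene and every exon. A CCAAT box was found in 7 (28.0%), against 33.8% of all windows, and a TATA box (TATAAA) in 1 (4.0%), the L-type pore Cacna1d, against 12.4%. The median G and C content was 62.0% for the members and 52.4% over all windows.

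Among the sodium channels, Scn1a, the pore that is prominent in inhibitory neurons, stood at 249, 220 and 251 CPM in control cerebellum and at 144, 143 and 171 CPM in control cortex (log2 difference 0.65, SE 0.10, edgeR adjusted p = 0.000613). Scn3a, best known from the developing brain, stood at 2.90, 2.13 and 2.49 CPM against 47.5, 50.9 and 51.5 CPM (log2 difference -4.32, SE 0.13, edgeR adjusted p = 5.08e-08). The axonal pores Scn2a (303 ± 10.4 and 303 ± 38.2 CPM, SD, n = 3) and Scn8a (270 ± 23.3 and 318 ± 63.6 CPM) did not pass the test. Scn3b was the beta subunit with the largest fall, with 3.74, 2.64 and 3.10 CPM in cerebellum against 109, 88.3 and 98.2 CPM in cortex (log2 difference -4.96, SE 0.15, edgeR adjusted p = 5.06e-08). Scn4b, a beta subunit linked to the resurgent sodium current, was lower in cerebellum at 78.2 ± 2.71 against 408 ± 204 CPM, where cortex control 2 alone stood at 643 CPM. Its log2 difference was -2.39, and -1.92 without that library, with the call kept. Scn2b did not pass, at 301 ± 20.5 and 262 ± 10.7 CPM. None of the 3 HCN genes was called. Hcn2, the main HCN gene in this set, stood at 115 ± 5.51 CPM in cerebellum and 151 ± 17.5 CPM in cortex, with an edgeR adjusted p of 0.00739 but a log2 difference of -0.40, and was called only without cortex control 3 (-0.51). Hcn3 (9.40 to 11.3 CPM in cerebellum and 10.6 to 14.4 CPM in cortex) and Hcn4 (4.64 ± 0.971 and 4.61 ± 1.46 CPM) did not pass the test, and Hcn2 held 91.8% ± 0.783 of the summed HCN level per length in cerebellum and 92.9% ± 1.04 in cortex.

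The tissue differences kept their direction for every called member under each alternative tried. Library totals as the only scaling moved the median log2 difference over all genes from 0.02 to 0.13. Of 36 further channel genes, pore and auxiliary subunits outside the 33 and proteins that bind or regulate these channels, 32 were tested, of which 8 were called higher and 14 lower in cerebellum. Among those called, Rrad (log2 difference 1.28) and the sodium channel partner Fgf11 (1.37) were higher, and Rimbp2 (-3.86) and Gem (-3.38) were lower.

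**Figure D2:**
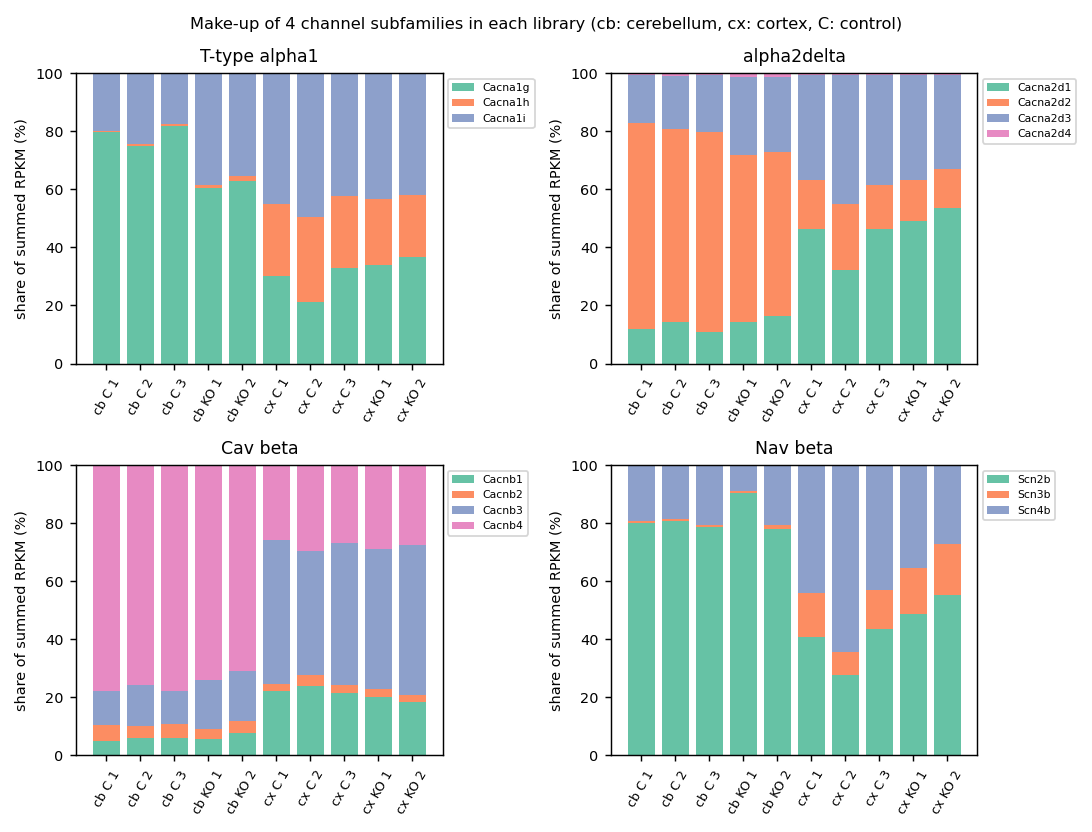
Share of the summed RPKM of 4 channel subfamilies held by each member, with 1 bar for each of the 10 libraries, grouped as cerebellum control, cerebellum KO, cortex control and cortex KO. Cacna1g fills 74.9% to 81.8% of the T-type bar in control cerebella, 60.4% and 62.8% in KO cerebella and 21.2% to 36.8% in the cortex libraries.

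Loss of Snx14 was then examined in the cerebellum. Of the 32 tested members 3 were called, beside a background of 1.55% of all genes tested: the T-type pore Cacna1g and the alpha2delta subunit Cacna2d2 fell, and the gamma subunit Cacng4 rose. Cacna1g was 1.84-fold lower, Cacna2d2 1.51-fold lower and Cacng4 1.55-fold higher in KO cerebellum. The median log2 difference of the 32 members was 0.08, beside 0.00 over all 19447 genes tested. Both KO libraries lay on 1 side of all 3 controls for 20 members, 12 above and 8 below, which is 62.5% of those tested, where the background was 30.0%.

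Cacna1g (ENSMUSG00000020866.17, chr11:94408391-94474198, minus strand, GRCm38) stood at 325, 234 and 312 CPM in the control cerebella and at 160 and 157 CPM in KO 1 and KO 2. The lowest control, the Het control 2, was still well above both KO libraries, which differed little from each other. The log2 difference was -0.88 (SE 0.13, edgeR adjusted p = 0.0124). The other T-type pores lay on the opposite side: Cacna1i was at 78.3, 73.9 and 65.4 CPM in controls and at 99.4 and 85.9 CPM in KO libraries (log2 difference 0.34, SE 0.09, edgeR adjusted p = 0.127). Cacna1h was at 1.98 to 2.41 CPM in controls and at 2.64 and 4.27 CPM in KO libraries, with an edgeR adjusted p of 0.301. Neither gene passed the test. The summed T-type level per length was 36.2 ± 4.85 RPKM in controls (SD, n = 3) and 25.4 ± 1.08 RPKM in KO cerebellum (SD, n = 2). The share held by Cacna1g was 78.8% ± 3.56 in controls and 61.6% ± 1.71 in KO cerebellum, and that of Cacna1i 20.6% ± 3.42 and 37.0% ± 2.23, with no overlap between the groups.

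Cacna2d2 (ENSMUSG00000010066.15, chr9:107399612-107529343, plus strand) stood at 205, 161 and 187 CPM in controls and at 127 and 119 CPM in KO libraries, again without overlap. The log2 difference was -0.59 (SE 0.10, edgeR adjusted p = 0.0192). The other alpha2delta genes were not called: Cacna2d1 was at 45.8 to 54.1 CPM in controls and 49.4 and 54.2 CPM in KO libraries, Cacna2d3 at 48.7 to 58.8 CPM and at 64.7 and 59.4 CPM, and Cacna2d4 at 1.96 to 2.45 CPM and at 3.30 and 3.40 CPM. The share of Cacna2d2 in the summed alpha2delta level per length was 68.7% ± 2.12 in controls and 57.0% ± 0.693 in KO cerebellum.

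Cacng4 (ENSMUSG00000020723.3, chr11:107732357-107794557, minus strand), a gamma subunit that acts on AMPA receptors, stood at 33.2, 27.6 and 29.1 CPM in controls and at 48.9 and 44.8 CPM in KO libraries, where both were above every control. The log2 difference was 0.64 (SE 0.10, edgeR adjusted p = 0.0140). Cacng7 was at 246, 253 and 269 CPM in controls and at 219 and 205 CPM in KO libraries, and its log2 difference of -0.28 (SE 0.07, edgeR adjusted p = 0.102) did not pass the test. The beta subunit Cacnb2 was at 50.3, 39.0 and 47.5 CPM in controls and at 31.4 and 33.8 CPM in KO libraries (log2 difference -0.49, SE 0.12, edgeR adjusted p = 0.0830). It did not pass either, although it did without control 2 (-0.59, adjusted p = 0.00940). These 6 genes had the lowest p of the members in KO cerebellum.

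**Figure D3:**
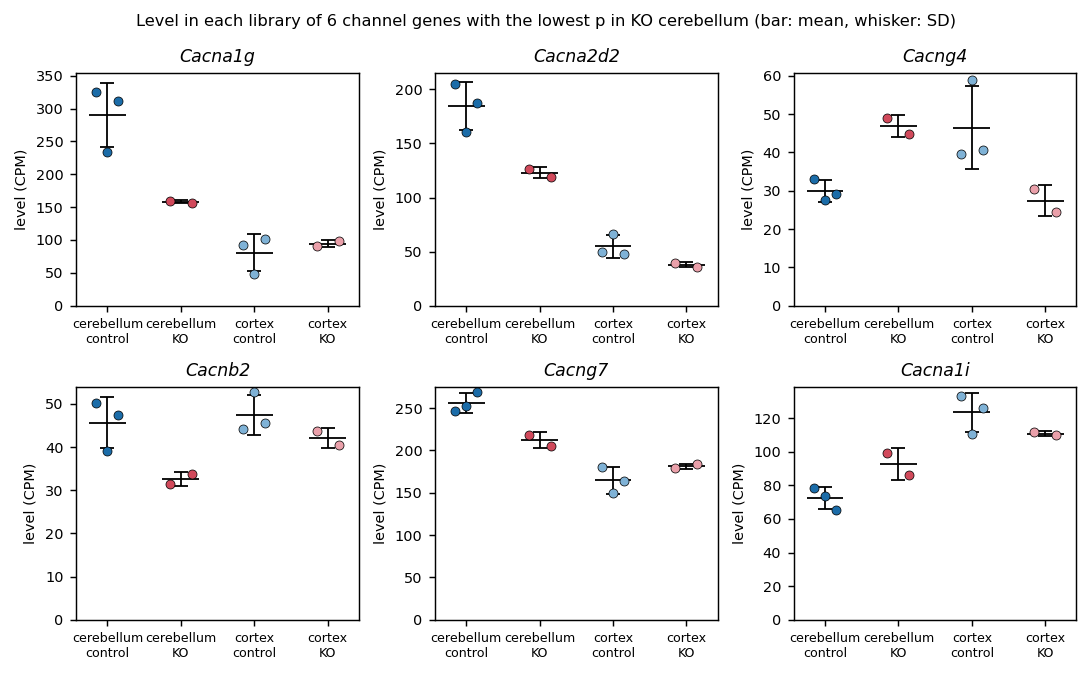
Level in CPM of the 6 members with the lowest p in KO cerebellum, with a point for each library of the 4 groups, a bar at the mean and a whisker for the SD (n = 3 controls, n = 2 KO). In cerebellum both KO points lie below every control for Cacna1g, Cacna2d2, Cacnb2 and Cacng7, and above every control for Cacng4 and Cacna1i.

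The remaining 26 tested members were not called in KO cerebellum. The beta subunit Cacnb4 was at 475 to 503 CPM in controls and 448 and 377 CPM in KO libraries, stargazin (Cacng2) at 210 to 237 CPM and at 197 and 189 CPM, and the sodium channel pore Scn1a at 220 to 251 CPM and at 213 and 201 CPM. For each of these 3 the KO libraries lay below all controls, with edgeR adjusted p of 0.245, 0.193 and 0.245. The P/Q-type pore Cacna1a overlapped between the groups, at 348 to 383 CPM in controls and at 363 and 304 CPM in KO libraries, as did the sodium channel pores Scn2a and Scn8a, the N-type pore Cacna1b, the L-type pore Cacna1d and the beta subunit Cacnb1. Cacng5, at 42.3 to 51.6 CPM in controls and at 41.5 and 42.0 CPM in KO libraries, lay just below the controls (edgeR adjusted p = 0.543). The L-type pore Cacna1c was at 43.4 to 59.3 CPM in controls and at 65.5 and 62.4 CPM in KO libraries, and the R-type pore Cacna1e at 125 to 144 CPM and at 176 and 146 CPM. Scn3a, at 2.13 to 2.90 CPM in controls and 3.68 and 3.89 CPM in KO libraries, Cacng3, Cacng8, Cacnb3 and Hcn3 also lay above all controls. None of these passed the test, with edgeR adjusted p of 0.250 to 0.562.

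Scn4b differed between the KO cerebella. It was at 81.2, 75.9 and 77.4 CPM in controls, at 78.5 CPM in KO 2 and at 36.7 CPM in KO 1, the library with few choroid plexus transcripts. With both KO libraries its log2 difference was -0.44 (SE 0.25, edgeR adjusted p = 0.528), and without KO 2 it was called, at -1.10 (adjusted p = 0.00294), while without KO 1 it was 0.01 (adjusted p = 0.991). Whether the makeup of KO 1 took part in this was not tested. Scn2b (278 to 318 CPM in controls, 352 and 278 CPM in KO libraries) and Scn3b (2.64 to 3.74 CPM in controls, 3.46 in KO 1 and higher in KO 2) also differed between the KO libraries and overlapped the controls. The HCN genes were not called, with log2 differences of 0.11 for Hcn2, 0.26 for Hcn3 and 0.50 for Hcn4.

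All 12 Purkinje cell marker genes fell in KO cerebellum, and their summed level was 8642 to 10440 CPM in controls and 4307 to 4412 CPM in KO libraries, with a median log2 difference of -1.12. This list was chosen with earlier results of these data known. It holds Calb1, Pcp2, Car8 and Rgs8, which the study itself names as lower in KO cerebellum at this age, so the fall is not an independent result. None of the 12 was at 0 throughout the control or the KO cerebella. None of the 8 granule cell genes was called, with a sum of 3742 to 4403 CPM in controls and 3717 to 4386 CPM in KO libraries. The sum of 7 microglia genes was 125 to 142 CPM in controls and 186 to 188 CPM in KO libraries, with 2 called higher, and that of 7 astrocyte and Bergmann glia genes was 2534 to 2728 and 2789 to 2976 CPM, with 3 called higher and 1 lower. In bulk tissue fewer cells of a type and less RNA per cell cannot be told apart, and the part of these cell types in the differences of Cacna1g, Cacna2d2 and Cacng4 was not tested. Of the 36 further channel genes 30 were tested in KO cerebellum and 0 were called, while 7 had an unadjusted p under 0.05 (2611 of 19447 over all genes), and DESeq2 also called 0. Fgf11, a sodium channel partner, was at 70.3, 60.7 and 63.7 CPM in controls and at 45.6 and 48.9 CPM in KO libraries, and with a log2 difference of -0.46 (edgeR adjusted p = 0.0266) it stayed under the fold threshold.

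The calls in KO cerebellum depended on single libraries. Cacna1g and Cacna2d2 kept their direction but lost the call without control 1, control 3, KO 1 or KO 2, where the log2 difference of Cacna1g was -0.79 to -0.89 (adjusted p = 0.0635 to 0.0774) and that of Cacna2d2 -0.51 to -0.63 (adjusted p = 0.0766 to 0.117). Cacng4 lost it without control 3 (0.62, adjusted p = 0.0778) or KO 1 (0.58, adjusted p = 0.0967).

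In the cortex none of the 32 tested members was called, and the background was 0% of the 19202 genes tested. The same fit did not call Snx14, the targeted gene, either (log2 difference -1.36, edgeR adjusted p = 0.754). DESeq2 called Snx14 (adjusted p = 2.1e-06), so a missing call in this cortex fit does not show that a gene was unchanged. An unadjusted p under 0.05 was found for 8 members, 1 higher and 7 lower, beside 1139 of the 19202 genes tested (507 higher and 632 lower), and DESeq2 called none of them. The median log2 difference of the members was -0.08, beside 0.00 over all genes tested. The KO libraries lay on 1 side of all controls for 12 members (37.5%), where the background was 24.7%: Scn1a lay above the controls, and 11 members, among them all 3 sodium channel beta subunits, lay below.

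**Figure D4:**
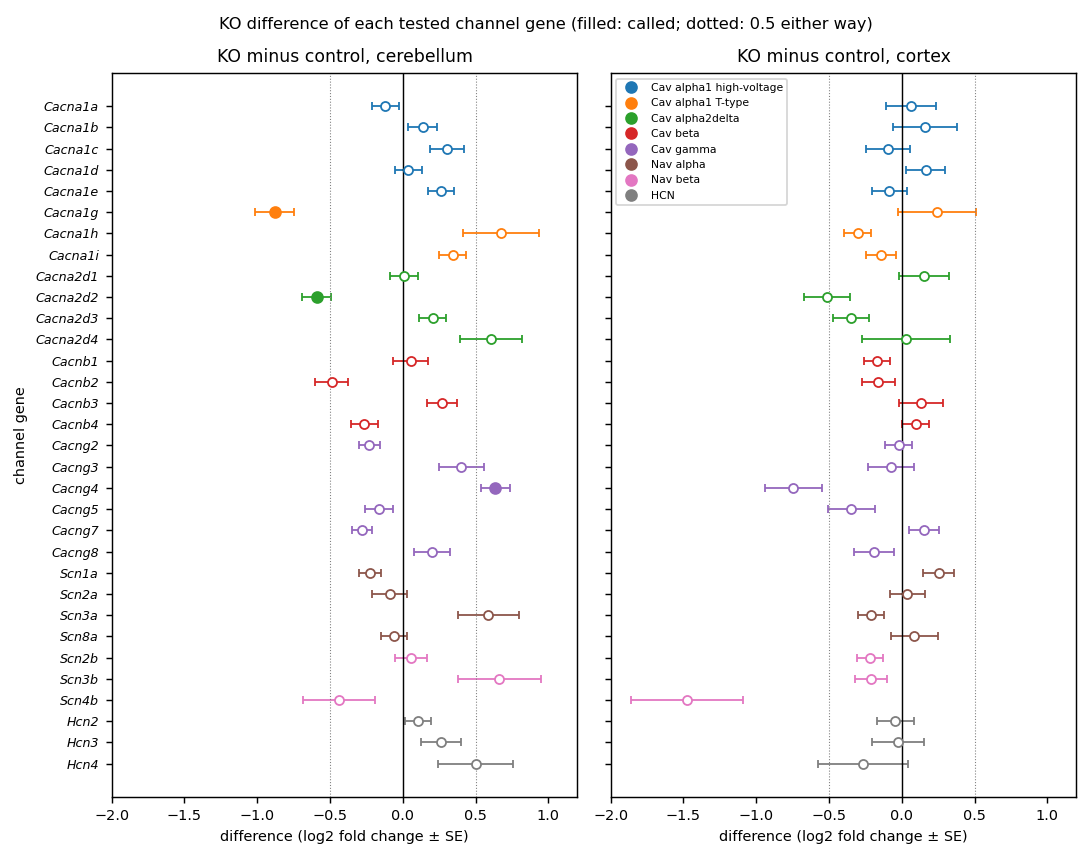
Log2 fold change with its SE of each of the 32 tested channel genes in KO against control cerebellum (left) and cortex (right), coloured by subfamily, with filled points for called genes and dotted lines at 0.5 in either direction. The 3 filled points are Cacna1g (-0.88), Cacna2d2 (-0.59) and Cacng4 (0.64) in cerebellum, no point is filled in cortex, and Scn4b lies farthest out there at -1.48.

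Scn4b (ENSMUSG00000046480.6, chr9:45138395-45154152, plus strand) had the lowest p of the members in cortex. It stood at 291, 643 and 288 CPM in controls and at 174 and 117 CPM in KO libraries. The log2 difference was -1.48 (SE 0.38, edgeR adjusted p = 0.754). Without control 2, the library with the highest Scn4b level, it was smaller but called, at -0.98 (adjusted p = 0.00516). Cacng4 was at 39.7, 58.9 and 40.6 CPM in controls and at 30.3 and 24.5 CPM in KO libraries (log2 difference -0.74, SE 0.20, edgeR adjusted p = 0.754), and without control 2 the difference was -0.53 (adjusted p = 0.0533). Cacna2d2 was at 49.8, 66.6 and 48.0 CPM in controls and at 39.9 and 36.2 CPM in KO libraries (log2 difference -0.51, SE 0.16, edgeR adjusted p = 0.768), and without control 2 the difference was -0.34 (adjusted p = 0.115). In these 3 genes control 2 was the highest library and KO 2 the lowest.

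The striatal marker genes followed the same order. All 8 had a lower level in both KO cortices than in every control, with a median log2 difference of -1.72 and no call, and their sum of 3728 CPM in control 2 and 543 CPM in KO 2 marked the ends of the range. Of the defining genes, the dopamine receptor Drd1 was at 40.1, 103 and 45.6 CPM in controls and at 25.2 and 13.8 CPM in KO libraries. None of the 8 was at 0. The part of striatal RNA in the levels of Scn4b, Cacng4 and Cacna2d2 was not tested. Scn4b, Cacng4 and Cacna2d2 are given in the plot of the cortex libraries beside the sum of these markers.

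**Figure D5:**
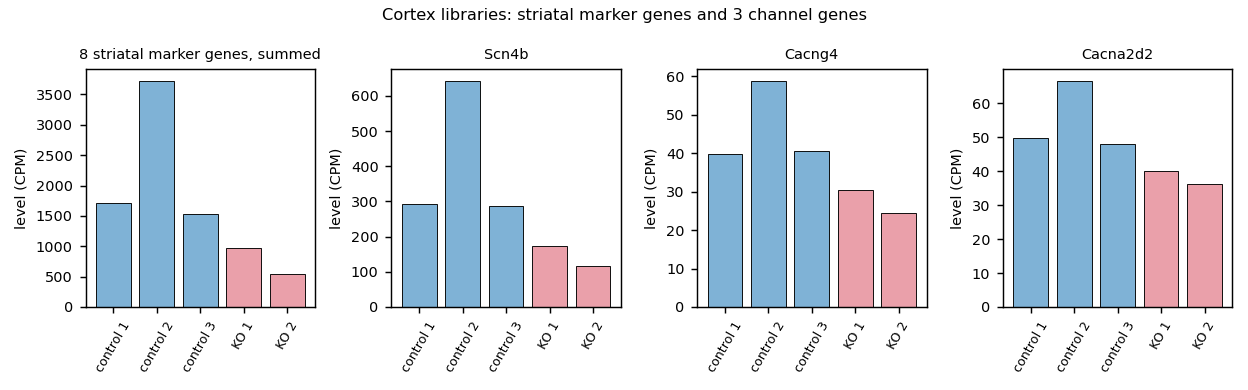
Bars give the level in CPM in each of the 5 cortex libraries of 8 summed striatal marker genes and of Scn4b, Cacng4 and Cacna2d2, with controls in blue and KO libraries in pink. In all 4 panels control 2 is the highest bar and KO 2 the lowest, from 3728 to 543 CPM for the markers and from 643 to 117 CPM for Scn4b.

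The next members in order of p were Cacna1h, Cacna2d3 and Scn2b. Cacna1h was at 72.5, 64.6 and 72.6 CPM in control cortex and at 57.5 and 54.6 CPM in KO cortex, a log2 difference of -0.30 (SE 0.09, edgeR adjusted p = 0.768). Cacna2d3 was at 118, 144 and 133 CPM and at 111 and 93.6 CPM, and Scn2b at 253, 260 and 274 CPM and at 224 and 222 CPM. Their log2 differences were -0.35 (edgeR adjusted p = 0.796) and -0.22 (edgeR adjusted p = 0.829). All 3 lay below the controls without overlap and without passing the test. Without control 2 Cacna1h had an edgeR adjusted p of 0.0298, but its log2 difference of -0.35 stayed under the fold threshold. Cacna1g, called in KO cerebellum, was at 92.2, 48.6 and 101 CPM in control cortex and at 90.3 and 98.5 CPM in KO cortex, so the groups overlapped. Its log2 difference was 0.24, and -0.02 without control 2. Among the sodium channel pores Scn1a lay above the controls, at 144, 143 and 171 CPM against 182 and 178 CPM (log2 difference 0.25, edgeR adjusted p = 0.829). The summed level per length of the beta subunits of sodium channels was 133, 201 and 135 RPKM in controls 1 to 3 and 98.9 and 86.0 RPKM in KO cortex. The 34 further channel genes tested in cortex held 0 calls by edgeR and by DESeq2, and 6 had an unadjusted p under 0.05.

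A difference of the KO effects between cerebellum and cortex was tested as a difference of log2 fold changes in 1 fit of all 10 libraries, at an adjusted p under 0.05. No member was called, beside a background of 0.102% of all genes tested, and 12 of the 32 members had an unadjusted p under 0.05, beside 1706 of the 20614 genes tested. The lowest p belonged to Cacng4, whose KO effect was 1.40 log2 units higher in cerebellum than in cortex (SE 0.24, edgeR adjusted p = 0.0785). Scn3a followed with 0.82 (SE 0.18, adjusted p = 0.141) and Cacna1h with 1.01 (SE 0.23, adjusted p = 0.177). For all 3 genes both KO libraries lay above the controls in cerebellum and below them in cortex. Each mouse gave both tissues, and with the animal as a block Cacng4 (1.39, edgeR adjusted p = 0.0177) and Cacna1g (-1.15, adjusted p = 0.0161) were called, where the background was 0.621%. DESeq2, with a background of 1.36%, called Cacng4, Cacna1h and Scn3a. Without cortex control 2 Cacng4 was called at 1.17 (adjusted p = 0.00962), and without cerebellum KO 1 Cacna1h was called at 1.29 (adjusted p = 0.0299). For Cacna2d2 the difference of the effects was -0.06 (SE 0.20, edgeR adjusted p = 0.981).

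The tissue comparison and the KO comparisons share the control libraries, so their values are set side by side without a test of their relation. Cacna1g was 1.84 log2 units higher in control cerebellum than in control cortex and 0.88 lower in KO than in control cerebellum, and for Cacna2d2 the values were 1.74 and 0.59. Cacng4 was 0.64 log2 units lower in control cerebellum than in control cortex and 0.64 higher in KO than in control cerebellum. In levels, Cacna1g in KO cerebellum (158 ± 2.33 CPM, SD, n = 2) lay between control cerebellum (290 ± 49.2 CPM) and control cortex (80.7 ± 28.1 CPM), Cacna2d2 (123 ± 5.09 CPM) lay between 184 ± 22.1 and 54.8 ± 10.3 CPM, and Cacng4 in KO cerebellum (46.8 ± 2.90 CPM) had a level beside that of control cortex (39.7, 58.9 and 40.6 CPM), where control 2 was the highest.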

How the data were processed

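For each of 10 libraries the authors deposited a table of unnormalized counts (read pairs assigned to each gene). The reads, from strand-specific paired-end libraries, had been trimmed and aligned to GRCm38 with STAR, and exonic pairs were counted by featureCounts 2.0.1 per the file headers, ignoring strand and leaving out multimapping reads. A pair overlapping several genes was counted for each, and at most 17.1% of a member's exonic bases (Hcn3) overlapped another gene. The 55536 mouse genes of 81881 entries were used, and the others held 0.160% to 0.926% of a library's counts. Names and coordinates are from GENCODE M21, and exon lengths for RPKM from the tables.

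Genes were filtered with filterByExpr (count minimum 10), scaled by TMM and compared by quasi-likelihood tests (edgeR 4.0.16, R 4.3.3), adjusting p by Benjamini-Hochberg over all genes tested. All members, whatever their values, were accounted for. The 6 members of lowest p in each KO comparison and the largest called rise and fall of each subfamily in the tissue comparison were given by library. In the comparison of KO effects the 3 of lowest p were given, and of the further channel genes at most 3 in each direction, of which some are not reported here. The members and lists were chosen with earlier results of these data known, and the motifs after the values were seen. Each tissue was fitted alone, without a block. The pairing of the tissues by animal is taken from the labels. Deviations from the group means correlated between the tissues of an animal at 0.164 to 0.370. Between tissues of different animals they correlated at -0.326 to 0.197, which overlaps that range. The highest of these, 0.197, came from cerebellum control 2 with cortex KO 2. Different animals within the control or the KO group correlated at -0.326 to 0.126, below the range of the same animal. Centring on the group mean lowers the values within a group, and for the KO mice -0.326 is the mirror of 0.326. Alternatives were DESeq2 1.42.0 (the tool of the study), RLE size factors, library totals alone, no filter, a replicate block and leaving out each library. The scripts were tested on simulated data. Libraries of a group are separate mice, of which the labels give no batch or date.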

Additional observations from a re-analysis of the deposited data

Results flagged for a closer look

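The KO effects of 2 members were unequal in cerebellum and cortex in a direct test of that inequality that kept the animal as a block. Cacna1g had a KO effect 1.15 log2 units lower in cerebellum than in cortex (-1.15, edgeR adjusted p = 0.0161). Cacng4 had one 1.39 log2 units higher (edgeR adjusted p = 0.0177). Without the block neither passed over all genes tested, with adjusted p of 0.355 and 0.0785.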

How the results depend on the processing

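Of the 32 tested members 3 were called in KO cerebellum, and DESeq2, RLE size factors, library totals alone and no filter on low counts each called 3 as well. With the mouse number as a replicate block 1 was called, Cacna1g. KO and control mice share only a number, which the labels tie to no litter or batch. Deviations of same-numbered KO and control libraries correlated at -0.0353 to 0.114 within a tissue and at 0.0144 to 0.197 across tissues. Leaving out 1 library called 0 to 4 members. In KO cortex 0 members were called, against 3 with no filter on low counts (Cacna2d2, Cacng4 and Scn4b) and 0 to 1 when a library was left out. For the difference of the KO effects 0 were called, against 3 with DESeq2, 8 with no filter, 2 with the animal as a replicate block and 0 to 1 without a library. The 23 tissue calls stayed at 22 to 23 under every alternative, and the block changed no other call. The cause of these shifts was not tested. With no filter, edgeR gave the spread shared across genes unlimited weight over a gene's own spread. The median prior degrees of freedom, which set this weight, were infinite in KO cerebellum, KO cortex and the difference, against 5.41, 4.64 and 4.78. In KO cortex the SE of Scn4b was then 0.12, against 0.38. No called member reversed its direction.

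Over all genes, no filter called 842 genes in KO cerebellum against 302, 380 in KO cortex against 0 and 599 for the difference of the effects against 21. DESeq2 called 49 genes in KO cortex and 219 for the difference, and the block 181 in KO cerebellum, 3 in KO cortex and 128 for the difference. Leaving out a library called 133 to 400 genes in KO cerebellum, 0 to 98 in KO cortex and 3 to 117 for the difference. Of 66 shares of a subfamily, 44 moved by more than 1 SD when CPM replaced RPKM, and in control cortex the leading beta subunit turned from Cacnb3 to Cacnb4. Where a KO library was left out the remaining one was assumed to vary like the controls. Scn4a could not be tested at this depth, and Cacna2d4 (26 to 82 counts a library) and, in cerebellum, Cacna1h (39 to 103) and Scn3a (46 to 94) rest on few counts.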
